A study of Mus musculus with 4 samples.

Results

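The 10 genes described here encode actins of the cytoskeleton and proteins that bind or move actin filaments: the actins *Actb*, *Actg1* and *Acta2*, the transgelins *Tagln* and *Tagln2*, the calponins *Cnn1*, *Cnn2* and *Cnn3*, and the myosin light chains *Myl9* and *Myl6*. They were taken by name from 56748 gene IDs in the count files, and all 10 were found. The rule itself uses no measured value, but the names were chosen with earlier results of these data known. How many of them were called is therefore a description. RNA of C2C12, an established mouse myoblast line of wild-type genotype, was read as direct RNA on nanopore flow cells, in which each read comes from 1 RNA molecule and starts at its 3′ end. The scrambled group (2 libraries) carried a control shRNA and the knockdown group (2 libraries) a mixture of 3 shRNAs against *Hnrnpl*, the gene of an RNA-binding protein that acts in splicing. In both groups the shRNA plasmids also expressed eGFP, cells were selected with puromycin, and cultures were kept in growth medium with serum. The sample titles give replicate numbers but name no batch. Libraries with the same number, 1 scrambled and 1 knockdown, share a date in the paper's supplement and are called batch 1 and batch 2 here. What the date marks is not stated. The 2 libraries of a group came from different passages of 1 selected stable line. The effect of the shRNA therefore cannot be told apart from a difference between the 2 selected lines, and the p-values below measure only the spread between passages.

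Actin monomers assemble into filaments, and filaments pulled by non-muscle myosin II give cells tension, shape and adhesion. *Actb* and *Actg1* encode the β- and γ-actin present in nearly all cells, while *Acta2* encodes the α-actin of smooth muscle, which cultured myoblasts and activated fibroblasts also make. Transgelins and calponins are small proteins that bind along actin filaments. *Tagln* and *Cnn1* are classical markers of differentiated smooth muscle, and *Tagln2*, *Cnn2* and *Cnn3* are found in many other cell types. *Myl9* encodes a regulatory light chain, whose phosphorylation switches on smooth muscle and non-muscle myosin II, and *Myl6* the essential light chain of the same motors. Many smooth muscle and cytoskeletal genes are known targets of the transcription factor SRF, which binds a short element called the CArG box.

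*Acta2* and *Myl9* were lower in the knockdown libraries, by 2.56-fold and 4.10-fold, and none of the listed genes was called higher. Of the 10 genes, 9 had enough reads to be tested. A gene was called when its adjusted p in the quasi-likelihood test of edgeR was under 0.05, its log2 fold change was further than 0.5 from 0, and its mean normalized count exceeded 10. By this rule 2 of the 9 were called lower and 7 were not called, and of all 8670 genes tested 3.22% were called lower, 2.33% higher and 5.55% in either direction. An adjusted p under 0.05 alone was reached by 5.95% of them and an unadjusted one by 21.8%. *Cnn1*, the smooth muscle calponin, had a log2 fold change between those of *Acta2* and *Myl9* but an adjusted p of 0.0570 in edgeR, just outside the threshold. The 6 other tested genes had log2 fold changes no further from 0 than 0.21, with adjusted p-values of 0.454 to 0.961. In 4 of the 9 genes both knockdown libraries lay below both scrambled libraries, in 2 they lay above and in 3 the groups overlapped. Among all genes tested 26.0% lay below, 26.4% above and 52.4% in either direction, so separation of 2 libraries from 2 is common in these data.

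**Figure D1:**
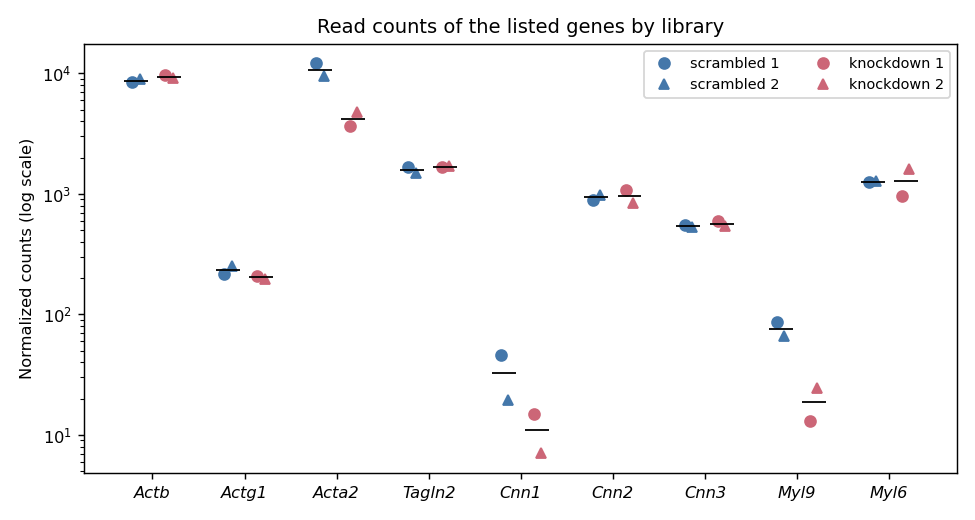
Normalized counts (counts scaled to a common library size, log axis) of the 9 tested genes in each library, with circles for batch 1, triangles for batch 2 and horizontal lines for group means. *Acta2*, *Cnn1*, *Myl9* and, by a small margin, *Actg1* lie lower in both knockdown libraries, and *Tagln*, with 1 read in all, is not plotted.

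The libraries held 1229424 to 1676911 reads counted on genes, 56.5% to 57.8% of all reads listed. A further 16.0% to 16.5% lay on more than 1 gene and 22.7% to 23.8% had a low mapping quality, and neither kind enters the counts of any gene. Mitochondrially encoded genes took 5.73% and 5.42% of the counted reads in scrambled and 7.30% and 6.70% in knockdown. With these genes and *Rn18s* left out, no call of the listed genes changed (*Acta2* at -1.36 and *Myl9* at -2.04). *Hnrnpl* itself gave 358, 656, 242 and 258 reads (scrambled 1, scrambled 2, knockdown 1 and knockdown 2, the order used throughout), a log2 fold change of -0.78 (SE 0.18, adjusted p = 0.0112, edgeR). This call was lost without scrambled 2 (log2 fold change -0.48) or without knockdown 1 (-0.62). The myoblast label was checked on 7 markers, of which 6 had reads. *Myf5* gave 157, 190, 158 and 113 reads, *Myod1* a single read in scrambled 2 and *Pax7* none. As reads left out of the counts were not traced to genes, a low count here is not a measure of absence. *Cdh15*, the gene of M-cadherin (113, 152, 25 and 14 reads, log2 fold change -2.55), *Chrna1*, an acetylcholine receptor subunit gene (255, 409, 120 and 78 reads, -1.53), and *Des*, the desmin gene (373, 571, 309 and 242 reads, -0.56), were called lower in edgeR, in the same libraries as *Acta2* and *Myl9*, with adjusted p-values of 2.03e-06, 3.40e-05 and 0.0308. The summed level of the 7 was 650, 793, 447 and 366 CPM, the read count scaled to the same total in every library. The part of these markers in the results below was not tested.

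The 3 actins are close relatives at the level of sequence. The coding sequences of *Actb* and *Actg1*, 1125 bases each, differ at 128 positions (88.6% identity), and those of *Actb* and *Acta2* are 82.8% identical. The first 60 coding bases (GENCODE vM39 transcripts, GRCm39) are shown because they hold the stretch in which the proteins differ most. Capitals mark, for *Actb* and *Actg1*, the 9 bases that differ between them, and, for *Acta2*, 23 bases that differ from *Actb* once the sequences are aligned. *Acta2* carries 6 bases after its start codon that *Actb* lacks, which are among the 23, so from there on its line runs 6 bases behind the other lines.
Actb: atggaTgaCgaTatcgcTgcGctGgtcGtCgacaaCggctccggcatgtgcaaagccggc
Actg1: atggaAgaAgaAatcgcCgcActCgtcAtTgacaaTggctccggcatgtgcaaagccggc
Acta2: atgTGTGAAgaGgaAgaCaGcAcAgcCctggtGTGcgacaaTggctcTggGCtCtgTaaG

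*Acta2* (ENSMUSG00000035783.10, reverse strand, chr19:34217737-34232990, 9 exons) gave 11542 and 11205 reads in the scrambled libraries but 3668 and 4067 in the knockdown libraries. Its normalized counts were 12094, 9434, 3657 and 4757, so both knockdown libraries lay well under both scrambled libraries. The scrambled mean was 10764 ± 1881 and the knockdown mean 4207 ± 778 (SD, n = 2 each). *Acta2* fell by 1.36 on the log2 scale (SE 0.17, 95% interval -1.71 to -1.001, edgeR adjusted p = 7.06e-05), and its p-value ranked 21 among all genes tested. The log2 ratio within a batch was -1.73 in batch 1 and -0.99 in batch 2. The median log2 fold change of the genes on chromosome 19 was -0.23. The last 301 bases of *Acta2* overlap the 3′ end of *Stambpl1*, a deubiquitinase gene on the opposite strand that itself gave 167, 215, 104 and 69 reads (log2 fold change -0.94, SE 0.17, edgeR adjusted p = 0.00250). The strand setting of the counting is not given in the sources used here, and the part of this overlap in either value was not tested.

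*Actb* (ENSMUSG00000029580.15, reverse strand, chr5:142888870-142892509, 6 exons), a gene often used as an internal standard, gave 8090, 10669, 9757 and 7807 reads. Normalized counts were 8477, 8983, 9728 and 9131, so the knockdown libraries lay just above the scrambled ones. The means of 8730 ± 358 and 9430 ± 422 (SD, n = 2 each) gave a log2 fold change of 0.11 (SE 0.15, 95% interval -0.20 to 0.42, edgeR adjusted p = 0.711). *Actb* was not called, and its interval does not reach the threshold of 0.5 in either direction. The median of chromosome 5 was 0.23, above the value of *Actb* itself.

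*Actg1* (ENSMUSG00000062825.16, reverse strand, chr11:120236512-120239617, 6 exons) gave 205, 301, 208 and 169 reads, far fewer than *Actb*. Normalized counts of 214.8, 253.4, 207.4 and 197.7 were slightly lower in both knockdown libraries. The log2 fold change was -0.21 (SE 0.15, 95% interval -0.53 to 0.11, edgeR adjusted p = 0.454) and *Actg1* was not called. The genome holds 18 pseudogene copies of *Actg1* found by sequence (at least 80% identity over at least 200 bases), a step added after the counts had been seen. Of these, 2 had reads, 54, 55, 37 and 36 in all. The copy with the most, *Gm12715*, is 99.6% identical to *Actg1* over 1128 aligned bases and gave 42, 43, 32 and 32 reads. A microRNA gene, *Gm55891*, is annotated on 83 bases within the *Actg1* transcript on the same strand. How many *Actg1* reads were set aside as ambiguous or of low mapping quality was not tested, so the level of *Actg1* against *Actb* is uncertain. *Actb* has 8 such copies, with no reads on any.

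**Figure D2:**
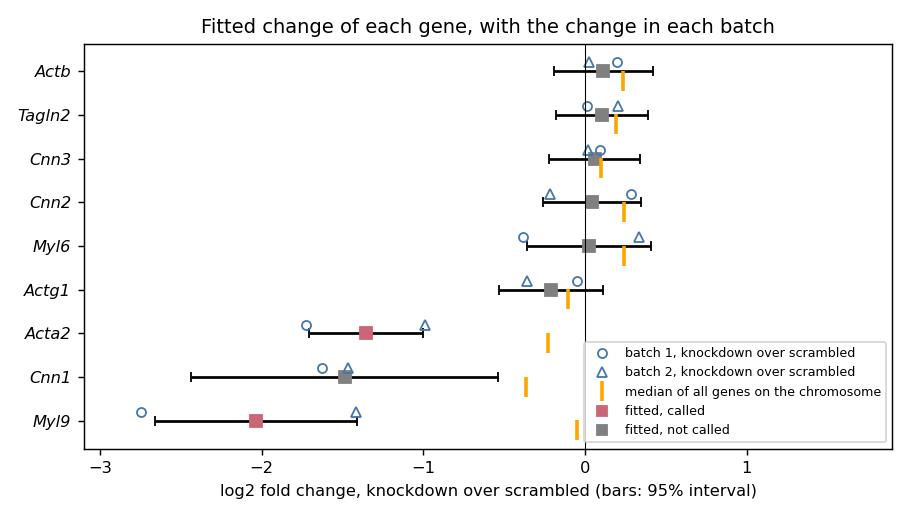
Fitted log2 fold change, knockdown over scrambled, of the 9 tested genes (squares, red where called) with 95% intervals, the log2 ratio in each batch (open symbols) and the median of all genes tested on the chromosome (orange ticks). *Acta2*, *Cnn1*, *Myl9* and, closer to 0, *Actg1* lie below 0 in both batches, and their fitted values lie below their chromosome medians. The intervals of *Actg1* and the 5 genes above it include 0.

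Of the 2 transgelins only *Tagln2* had enough reads to be tested. *Tagln* (ENSMUSG00000032085.6, reverse strand, chr9:45840909-45847404, 5 exons), the smooth muscle transgelin, gave 1 read in scrambled 1 and none in the other libraries, so it was not tested. With 1 read of 5668495 counted, the 95% Poisson interval runs from 0.0253 to 5.57 reads, which is at most 0.983 CPM. In a single library, 3 counts, the limit that a count of 0 allows, correspond to 1.79 to 2.44 CPM. Intervals and limits of this kind cover counting error only. In the annotation the last 123 bases of *Tagln* overlap the protease gene *Pcsk7*, and the long noncoding RNA gene *Gm48529* covers 877 of its 1651 transcript bases, both on the opposite strand. *Gm48529* had no reads and *Pcsk7* 2, 1, 0 and 0. Whether *Tagln* reads were set aside for these overlaps was not tested, and its low count is not a measure of absence.

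*Tagln2* (ENSMUSG00000026547.16, forward strand, chr1:172327426-172334947, 5 exons) gave 1586, 1759, 1677 and 1456 reads. Its normalized counts were 1662, 1481, 1672 and 1703, a narrow range in which the knockdown libraries lay just above the scrambled ones. The log2 fold change was 0.10 (SE 0.14, 95% interval -0.18 to 0.39, edgeR adjusted p = 0.711) and the gene was not called. The median of chromosome 1 was 0.19.

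None of the 3 calponins was called. *Cnn1* (ENSMUSG00000001349.6, forward strand, chr9:22010512-22020926, 7 exons) gave 44 and 23 reads in the scrambled libraries but 15 and 6 in the knockdown libraries. Normalized counts were 46.1, 19.4, 14.96 and 7.02. The groups do not overlap, but scrambled 2 is closer to knockdown 1 than to scrambled 1. The means of 32.7 ± 18.9 and 10.99 ± 5.61 (SD, n = 2 each) gave a log2 fold change of -1.49 (SE 0.45, 95% interval -2.43 to -0.54), with an unadjusted p of 0.00394 and an adjusted p of 0.0570 in edgeR. *Cnn1* was therefore not called in the main comparison. With the replicate number as a block it was called, at -1.56 and an edgeR adjusted p of 0.0144. The log2 fold change was -2.03 without scrambled 2. Without scrambled 1 the log2 fold change was -0.78. The DESeq2 tests did not call it, with adjusted p-values of 0.186 and 0.194 (Wald and likelihood-ratio test, local fit) and 0.484 and 0.538 (parametric fit). After subtraction of the chromosome 9 median of -0.37 it was -1.12 (edgeR adjusted p = 0.239). The last 961 bases of *Cnn1* overlap *Elof1*, a transcription elongation factor gene on the opposite strand with 272, 309, 220 and 206 reads (log2 fold change -0.24, edgeR adjusted p = 0.354). The part of that overlap in the *Cnn1* counts was not tested.

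*Cnn2* (ENSMUSG00000004665.11, forward strand, chr10:79824410-79831896, 7 exons) gave 846, 1166, 1082 and 722 reads, which are 886.5, 981.7, 1079 and 844.5 normalized counts. The knockdown libraries held both the highest and the lowest value. The log2 fold change was 0.04 (SE 0.15, 95% interval -0.26 to 0.35, edgeR adjusted p = 0.903), and the ratio was 0.28 in batch 1 and -0.22 in batch 2. *Cnn3* (ENSMUSG00000053931.12, forward strand, chr3:121220146-121251856, 7 exons) gave 530, 631, 594 and 460 reads. Normalized counts of 555, 531, 592 and 538 overlapped between the groups. The log2 fold change was 0.06 (SE 0.14, 95% interval -0.22 to 0.34, edgeR adjusted p = 0.848). For both genes the interval stays within 0.5 of 0.

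*Myl9* (ENSMUSG00000067818.7, forward strand, chr2:156617084-156623579, 4 exons) showed the largest change of the listed genes. It gave 83 and 78 reads in the scrambled libraries but 13 and 21 in the knockdown libraries. Normalized counts were 87.0, 65.7, 12.96 and 24.6, and the lowest scrambled library stood clear of the highest knockdown library. The means were 76.3 ± 15.1 (SD, n = 2) and 18.8 ± 8.20 (SD, n = 2). *Myl9* fell by 2.04 on the log2 scale (SE 0.30, 95% interval -2.66 to -1.41, edgeR adjusted p = 0.000381), rank 38 by p-value. The log2 ratio was -2.75 in batch 1 and -1.42 in batch 2, and the median of chromosome 2 was -0.05. The 169 bases at the 5′ end of *Myl9* overlap *5730471H19Rik*, a long noncoding RNA gene on the opposite strand with 5, 9, 3 and 0 reads, and the part of this overlap was not tested. *Myl6* (ENSMUSG00000090841.3, reverse strand, chr10:128320267-128330014, 6 exons) gave 1189, 1529, 956 and 1389 reads. Normalized counts of 1246, 1287, 953 and 1625 put 1 knockdown library below and 1 above both scrambled libraries. The means of 1267 ± 29.3 and 1289 ± 475 (SD, n = 2 each) gave a log2 fold change of 0.02 (SE 0.18, 95% interval -0.36 to 0.40, edgeR adjusted p = 0.961). The ratio was -0.39 in batch 1 and 0.34 in batch 2. Of 6 pseudogene copies of *Myl6* found by sequence 3 had reads, 264, 267, 174 and 191 in all. The copy with the most was *Gm10080*, 99.1% identical over 438 bases, with 179, 186, 98 and 122 reads. With reads on such copies added to their closest gene, *Myl6* was at -0.03 and remained uncalled.

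Since each direct RNA read comes from 1 molecule, levels of different genes were set side by side first as CPM, without division by length. *Acta2* was highest in both scrambled libraries, at 8318 and 6682 CPM, above *Actb* at 5831 and 6362 CPM. In knockdown *Actb* was highest, at 7098 and 6350 CPM, and *Acta2* second, at 2668 and 3308 CPM, so the order of these actins differs between the groups. *Tagln2* came next in every library, with 1143, 1049, 1220 and 1184 CPM. *Myl6* followed with 857, 912, 695 and 1130 CPM and *Cnn2* with 610, 695, 787 and 587 CPM, and these neighbours overlapped in knockdown. *Cnn3* gave 374 to 432 CPM, *Actg1* 137 to 179 CPM, and *Myl9*, *Cnn1* and *Tagln* were lowest. *Myl9* and *Cnn1* overlapped in knockdown, at 9.46 and 17.1 against 10.9 and 4.88 CPM. The order at the top depends on the scale. As CPM per kilobase of the canonical transcript, the values for *Actb* were 3175 ± 196 in scrambled and 3502 ± 275 in knockdown (SD, n = 2 each), those for *Acta2*, whose transcript is longer, 2690 ± 415 and 1072 ± 162, and those for *Myl6*, whose transcript is the shortest of the listed genes, 1271 ± 55.7 and 1311 ± 441. On that scale *Actb* leads in both groups.

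Shares within a family do not depend on how libraries are scaled to each other. *Acta2* made up 58.1% and 50.5% of the reads on the 6 actin genes (*Actb*, *Actg1*, *Acta2*, *Acta1*, *Actc1* and *Actg2*) in the scrambled libraries but only 26.9% and 33.7% in the knockdown libraries. The mean share was 54.3% ± 5.39 in scrambled and 30.3% ± 4.83 in knockdown (SD, n = 2 each), a difference of -24.0 percentage points. In scrambled *Acta2* thus supplied most of the counted actin reads in each library, and in knockdown *Actb* did. With reads on pseudogene copies added to their closest gene the difference was -23.98 percentage points. How many *Actg1* reads were left out of the counts was not tested, so shares with *Actg1* in the total are uncertain. *Myl9* held 16.0% and 13.02% of the reads on the regulatory light chains *Myl9*, *Myl12a* and *Myl12b* in scrambled and 2.67% and 5.13% in knockdown, a difference of -10.6 percentage points. *Cnn1* held 3.10% and 1.26% of calponin reads in scrambled and 0.887% and 0.505% in knockdown, and the exact binomial intervals of scrambled 2 (0.803% to 1.89%) and knockdown 1 (0.497% to 1.46%) overlap. The share of *Cnn3* overlapped between the groups (37.3%, 34.7%, 35.1% and 38.7%, exact two-sided permutation p = 0.667). *Actb* held 97.5%, 97.3%, 97.9% and 97.9% of the reads on *Actb* and *Actg1*, slightly more in both knockdown libraries. *Tagln* held 0.0630% of transgelin reads in scrambled 1 and none elsewhere (p = 1 by the exact permutation test). For the shares whose groups separate, the two-sided exact permutation test gave p = 0.333, the smallest that 2 libraries against 2 allow, so none can pass 0.05.

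**Figure D3:**
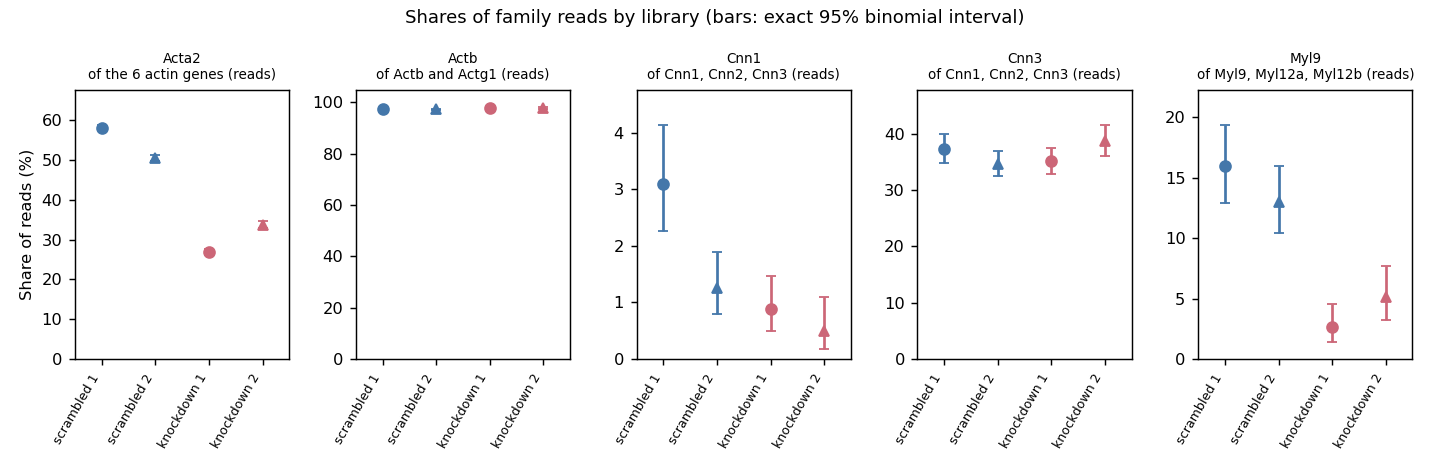
Share of family reads (%) in each library, with exact 95% binomial intervals that cover counting error only. *Acta2* holds at least 50.5% of actin reads in scrambled and at most 33.7% in knockdown, and *Myl9* at least 13.02% and at most 5.13% of regulatory light chain reads. The share of *Actb* is near its ceiling of 100%, and that of *Cnn3* overlaps between the groups.

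The CArG box was searched from 500 bases before to 250 bases after the start of each canonical transcript, on both strands. Of the 10 genes 5 held at least 1 match, 7 matches in all, against 3.52% of 21617 protein-coding genes. The matches are shown in capitals within 30 bases of GRCm39 on the strand of the gene, since SRF is the factor best known for these families. Positions give the first base of the match relative to the start of the transcript.
Actb, position -33, chr5:142892523-142892552: ccgaaagttgCCTTTTATGGctcgagtggc
Actg1, position -267, chr11:120239865-120239894: gacccctcctCCAATAAAGGgacatggctg
Actg1, position 206, chr11:120239392-120239421: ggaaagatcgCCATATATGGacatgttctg
Tagln, position -64, chr9:45847449-45847478: agggtcctgcCCATAAAAGGtttttcccgg
Tagln, position 59, chr9:45847326-45847355: gtgtctttccCCAAATATGGagcctgtgtg
Cnn2, position -33, chr10:79824368-79824397: cgcttccacgCCTTATAAGGacatttgctc
Myl9, position 139, chr2:156617213-156617242: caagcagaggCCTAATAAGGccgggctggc

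Of the called genes *Myl9* held a match in this window and *Acta2* did not. *Actb*, *Actg1* and *Cnn2*, which were not called, each held at least 1. The absence of a match in *Acta2*, *Tagln2*, *Cnn1*, *Cnn3* and *Myl6* says only that these letters are not in the window.

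The other actins and light chains were taken from lists of related genes. *Actg2*, the γ-actin of smooth muscle, gave 4 and 3 reads in scrambled and 15 and 21 in knockdown, the direction opposite to *Acta2*. It was called higher (log2 fold change 2.53, SE 0.52, edgeR adjusted p = 0.00635). With normalized means of 3.36 in scrambled and 19.8 in knockdown it passed the minimum of 10 only through the group where it is high, and the call is given as a description. In DESeq2 the Wald test with the local fit gave an adjusted p of 0.0670, so this call was lost there. *Acta1*, the skeletal α-actin, gave 16, 9, 7 and 9 reads (log2 fold change -0.44, edgeR adjusted p = 0.654). *Actc1*, the cardiac α-actin, had none, and *Tagln3* gave 2 reads in all. Of 13 other light chains and myosin heavy chains 7 had reads and 4 were tested. None of the 4 was called in edgeR, where 5.55% of all genes tested were called in either direction. An unadjusted p under 0.05 in edgeR was reached by 2 of the 4, beside 21.8% of all genes tested. DESeq2 (Wald test, local fit) called none of them. *Myl12a*, a regulatory light chain 85.7% identical to *Myl9* in coding sequence, gave 434, 519, 473 and 387 reads and a log2 fold change of 0.05 (SE 0.14, edgeR adjusted p = 0.863). *Myl12b* gave 3, 2, 1 and 1 reads. It shares 96.5% of its coding bases with *Myl12a*, so the split of reads between them is uncertain.

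**Figure D4:**
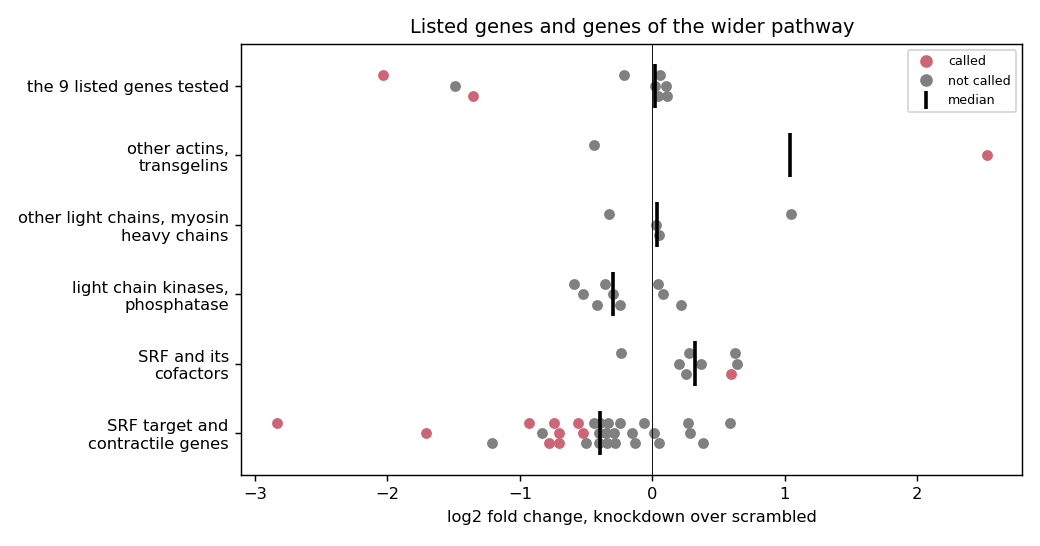
Log2 fold change, knockdown over scrambled, of the 9 listed genes tested and of the tested genes of 5 wider lists, 1 point per gene, red where called, with a bar at each median. In the list of SRF target and contractile genes 25 of 31 points lie below 0, and its 9 called genes are all lower.

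The kinases and phosphatase that set light chain phosphorylation, together with their regulators, were represented by 13 genes, all with reads. Of these 9 were tested and none was called in edgeR, where 5.55% of all genes tested were called in either direction. An unadjusted p under 0.05 in edgeR was reached by 3 of the 9, beside 21.8% of all genes tested. DESeq2 (Wald test, local fit) called none of them. The largest difference was that of *Ppp1r14b*, a phosphatase inhibitor gene, with 1913, 2737, 1105 and 1509 reads (log2 fold change -0.59, SE 0.18, edgeR adjusted p = 0.0540). With the replicate block it was called, at -0.62 (edgeR adjusted p = 0.0345). It was not called with chromosome medians removed (-0.36, edgeR adjusted p = 0.356) or in DESeq2 (Wald test, local fit, adjusted p = 0.545). *Mylk*, the gene of myosin light chain kinase, had 6 reads in all.

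SRF and its cofactors were represented by 9 genes, of which 8 were tested. Of these 1 was called higher and none lower, beside 2.33% and 3.22% of all genes tested. An unadjusted p under 0.05 in edgeR was reached by 1 of the 8, beside 21.8% of all genes tested. The median log2 fold change was 0.32, beside -0.00059 over all genes tested. *Srf* gave 86, 127, 99 and 58 reads (log2 fold change -0.24, SE 0.20, edgeR adjusted p = 0.529) and its groups overlapped. The actin-sensing cofactors *Mrtfa* and *Mrtfb* had few reads, 10 to 16 and 16 to 39 per library, with log2 fold changes of 0.62 (SE 0.41) and 0.64 (SE 0.33) that were not called. *Elk3*, a ternary complex factor, gave 153, 149, 201 and 196 reads and was called higher (0.59, SE 0.17, edgeR adjusted p = 0.0410). This call was lost with the DESeq2 Wald test (adjusted p = 0.163) and after chromosome medians were removed (0.35, edgeR adjusted p = 0.335). *Elk1*, *Elk4*, *Fhl2* and *Ets1* stood between 0.20 and 0.37 and were not called. *Myocd*, the muscle-specific cofactor, had no reads in any library.

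Of 36 further SRF target and contractile genes 34 had reads and 31 were tested. In this list 9 were called lower and none higher, where 3.22% of all genes tested were called lower, 25 of the 31 log2 fold changes were below 0, and the median was -0.39. In 20 both knockdown libraries lay below both scrambled libraries and in 1 above, against 26.0% and 26.4% of all genes tested. DESeq2 (Wald test, local fit) called 9 lower, the fit with the replicate block 7 and that with chromosome medians removed 12, with none higher in any of these. The list was drawn up with earlier results of these data known, so its direction is a description. The called genes with the largest changes were *Fhl1*, a LIM protein gene (376, 414, 45 and 51 reads, log2 fold change -2.83, SE 0.18), and *Tpm1*, a tropomyosin gene (205, 255, 49 and 72 reads, -1.71, SE 0.20). *Csrp1*, another LIM protein gene, fell by 0.93 on the log2 scale (SE 0.16), the fibronectin receptor subunit gene *Itga5* by 0.78 (SE 0.16), the muscle ankyrin repeat gene *Ankrd1* by 0.74 (SE 0.13) and the small heat shock protein gene *Hspb1* by 0.71 (SE 0.16). The adjusted p-values of these 6 in edgeR ran from 1.53e-08 to 0.0104. Within the tropomyosins *Tpm2* was at 0.02 (SE 0.22) and *Tpm4* at -0.24 (SE 0.14), and neither was called.

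Markers of other cell types were counted beside these results. Of 7 smooth muscle and pericyte markers *Myh11*, *Myocd*, *Rgs5* and *Lmod1* were at 0 in all libraries, and the summed level was 111 and 160 CPM in scrambled and 88.0 and 97.6 CPM in knockdown. Of the 3 with reads *Mcam* (29, 37, 7 and 2 reads, log2 fold change -2.64, edgeR adjusted p = 0.00148) and *Cspg4* (56, 104, 25 and 44 reads, -0.98, edgeR adjusted p = 0.0497) were called lower together with *Acta2* and *Myl9*, and *Pdgfrb* (69, 128, 89 and 74 reads) stood at -0.05 (edgeR adjusted p = 0.909). Of 8 fibroblast markers *Lum*, *Col1a1* and *Thy1* were at 0, and the summed level was 345 and 259 CPM in scrambled and 153 and 121 CPM in knockdown, lower in the same libraries as *Acta2* and *Myl9*. Most of that sum was *Col1a2* (409, 345, 154 and 105 reads). Whether reads of the markers at 0 were set aside as ambiguous or of low mapping quality was not tested. A count of 0 is therefore not a measure of absence. Of 10 markers of differentiating muscle 7 were at 0, *Myog* among them, with sums of 13.7, 8.95, 7.27 and 11.4 CPM. Of 4 adipogenic markers *Plin1* was at 0 and the sums were 15.1 and 19.7 CPM in scrambled and 53.1 and 39.9 CPM in knockdown. Nearly all of that sum was *Pparg*, a nuclear receptor gene of fat cells (21, 31, 72 and 49 reads), which was called higher (log2 fold change 1.42, edgeR adjusted p = 0.00271). Of 6 leukocyte and endothelial markers 4 were at 0, with sums of 1.44 to 3.25 CPM. The part of any of these in the changes of *Acta2* and *Myl9* was not tested, and in bulk RNA fewer cells of a type and less RNA per cell cannot be told apart.

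The pattern of *Acta2* over the 4 libraries was compared with that of 2578 genes with a mean normalized count of at least 100, by the Euclidean distance between their log2 values centred on the mean of each gene. The most similar was *Asb5* (distance 0.369), with 1028, 1032, 334 and 275 reads and a log2 fold change of -1.57. *Tmsb4x*, the gene of thymosin β4, which binds actin monomers, came next (distance 0.386, 3747, 3425, 1416 and 1738 reads, -0.98), and then *Hba-a1*, an α-globin gene (distance 0.398, 645, 516, 226 and 179 reads, -1.35). None of the other listed genes with a mean of 100 or more was among these. With 4 libraries such a likeness is a description only.

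**Figure D5:**
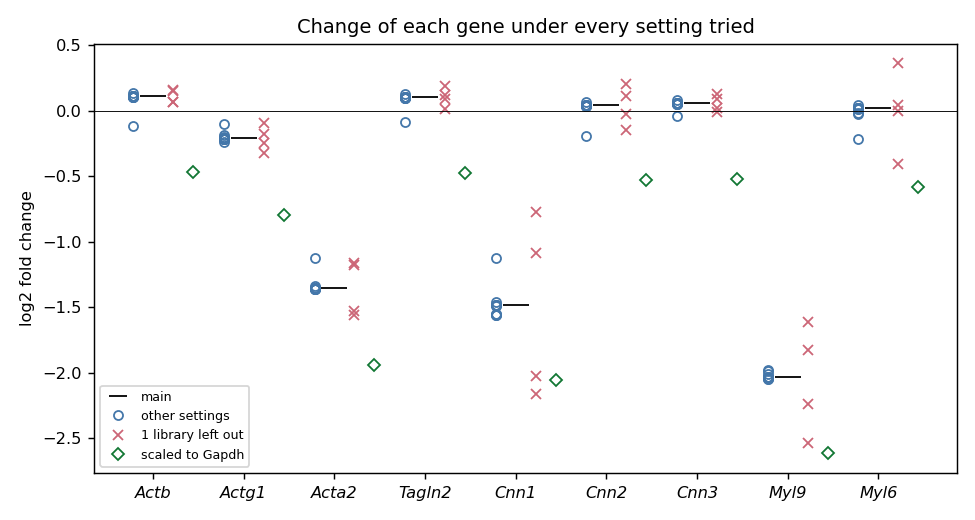
Log2 fold change of the 9 tested genes in the main comparison (black bar) and under each alternative setting: other scalings, filters and tests (circles), 1 library left out (crosses) and scaling to *Gapdh* (diamonds). *Acta2* and *Myl9* stay below -1 in every setting plotted, *Cnn1* ranges from -2.16 to -0.78, and the other 6 genes lie between -0.41 and 0.36 except under the *Gapdh* scaling.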

How the data were processed

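The authors basecalled direct RNA reads with guppy, aligned them to the GRCm39 build in minimap2 2.17 and assigned them to genes in HTSeq 0.9.1 (versions from the submitters' processing notes), and deposited whole-number read counts without normalization. The strand setting and annotation release are not given in the sources used here. HTSeq leaves out reads that lie on more than 1 gene or have a low mapping quality, so genes with overlapping neighbours or near-identical copies can be undercounted. Rows for such reads were kept out of library sizes and tests. Symbols and positions came from GENCODE vM39, which held 56017 of the 56748 IDs.

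Counts were fitted in edgeR 4.0.16 (R 4.3.3) with TMM, filterByExpr and the quasi-likelihood test on all 4 libraries with group as the only term, and p-values were adjusted by Benjamini-Hochberg over 8670 genes. Normalized counts were obtained with the TMM factors and the mean library size. The call thresholds, given with the results, are those of the authors. The fit was tested on simulated data first. Alternatives included DESeq2, a tool the authors also used, here in version 1.42.0. The chi-square per gene between libraries of the same group was 2.55 (scrambled) and 2.79 (knockdown), and counting error alone would give 1.

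Batches pair libraries by replicate number, and over 4501 genes the deviations of same-numbered libraries from the means of their groups correlated at 0.00258. All 10 listed genes are named, and of each wider list up to 6 called genes, the largest first, and every cofactor of SRF with counts. Other genes of these lists were named after their values were seen. The listed genes and lists were chosen with earlier results of these data known.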

Additional observations from a re-analysis of the deposited data

How the results depend on the processing

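*Acta2* and *Myl9* were called lower in all 18 alternatives, with adjusted p-values of 1.82e-39 to 0.00078 and 2.93e-10 to 0.0181. With 1 library left out, the log2 fold change ranged from -1.56 to -1.17 for *Acta2*, -2.54 to -1.62 for *Myl9*, -2.16 to -0.78 for *Cnn1*, 0.07 to 0.15 for *Actb*, -0.32 to -0.09 for *Actg1*, 0.01 to 0.19 for *Tagln2*, -0.15 to 0.21 for *Cnn2*, -0.013 to 0.12 for *Cnn3*, -0.41 to 0.36 for *Myl6* and -1.03 to -0.48 for *Hnrnpl*. Where 1 library was left alone in a group, it was assumed to vary like the other group. The *Cnn3* share difference ranged from -0.87 to 2.72 percentage points. *Cnn1* was also called without a filter on low counts (-1.49). With the replicate block *Cnn1* was called (-1.56) and *Myl6* was at -0.022, and the block changed no other call of the listed genes. With chromosome medians removed, *Actb* was at -0.12, *Tagln2* at -0.090, *Cnn2* at -0.20, *Cnn3* at -0.039 and *Myl6* at -0.22, and with pseudogene reads added *Myl6* was at -0.030, none of them called. *Hnrnpl*, at -0.78 in DESeq2 with the parametric fit, was not called there (adjusted p = 0.0567 in the Wald test, 0.0670 in the likelihood-ratio test).

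Scaling to *Gapdh* rests on 25 to 35 reads per library and lowered every log2 fold change by about 0.58: *Actb* was then at -0.47, *Actg1* at -0.80, *Tagln2* at -0.48, *Cnn1* at -2.06, *Cnn2* at -0.53, *Cnn3* at -0.52 and *Myl6* at -0.58, with *Acta2* and *Myl9* also lower, and all of these but *Actb* and *Tagln2* passed the fold threshold, so that 7 listed genes were called lower, and 31 genes were called higher and 3504 lower of all tested. Against 202 higher and 279 lower in the main comparison, DESeq2 called 80 and 148 (Wald, local fit), 44 and 71 (Wald, parametric), 75 and 147 (likelihood ratio, local) and 42 and 70 (likelihood ratio, parametric), and the fit with chromosome medians removed 106 and 179. With 1 library left out the counts ran from 82 to 183 higher and from 112 to 261 lower, lowest without knockdown 1. *Tagln*, with 1 read, lay below the filter of the main test, and its alternatives are not given. The cause of these differences was not tested. Few reads limit the precision for *Tagln*, *Cnn1* and *Actg2*, among others.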
